A study of Mus musculus with 6 samples.

Results

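The genes described here are 40 genes of granulocytes and monocytes, the phagocytic and inflammatory white cells made in bone marrow beside B cells. They were chosen by gene symbol, and all 40 were found among the 22098 symbols of the expression table, each represented by its transcript of highest mean level. They fall into genes of the azurophil stage (5 genes), specific granules (6), late neutrophils (12), basophils (1), eosinophils (3), monocytes (4), phagocytes in general (6) and the C/EBP transcription factors (3).

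The series used RNA sequencing to ask which functions of Ikaros, a DNA-binding zinc finger protein of lymphocytes encoded by Ikzf1, depend on its individual fingers. Total RNA came from proB cells of C57BL/6 mouse bone marrow at 6 to 7 weeks of age, sorted into Hardy fraction B and the later pool of fractions C and C', called fraction C. The 6 libraries were Ikaros ZnF1-/-, Ikaros ZnF4-/- and wild type (wt) in fraction C and the same 3 genotypes in fraction B, with 1 library for each genotype and fraction. The mutants, called ZnF1 and ZnF4, are labelled -/- for zinc finger 1 or 4. The labels name no Cre driver or transgene and do not say how many animals entered a library. A difference between a pair of libraries therefore has no replicate check, and no error is given for it. Both mutants were compared with the same wt libraries, so the comparisons are not independent of each other.

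All 12 B-lineage markers checked, among them Cd79a, Ebf1 and Pax5, were present in all 6 libraries at 18.7 RPKM or more. RPKM are reads scaled to transcript length and library size, and the number of reads behind them is unknown. The summed RPKM of the B-lineage markers was lowest in the ZnF1 library of fraction C (2382.4) and 3200.8 to 5516.2 in the others. Sex differed between mutant and wt libraries: Xist was listed at 0 in all 4 mutant libraries and stood at 91.9 and 81.3 RPKM in wt, and the Y-linked genes were listed at 0 in wt, so genotype and sex cannot be told apart against wt. Ikzf1 stood at 154.1 (ZnF1), 425.1 (ZnF4) and 169.4 RPKM (wt) in fraction C and at 181.5 (ZnF1), 431.6 (ZnF4) and 150.3 RPKM (wt) in fraction B, and values per transcript do not show which finger was removed.

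Neutrophils fill their granules in order: azurophil granules with Mpo and serine proteases in promyelocytes, specific granules with lactoferrin and cathelicidin in myelocytes, and gelatinase and surface receptors last. C/EBP factors and PU.1 switch these genes on in turn, C/EBPε being required for specific granules. Eosinophils and basophils pack their own cytotoxic proteins and proteases, and monocytes carry the receptor for CSF1. ProB cells, the cells sorted here, are precursors of the B lineage.

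Promoter sequences from RefSeq (build GRCm38.p6) were used for 33 of the 40 genes; those of Ncf4, Cd14, Tyrobp, Csf1r, Mmp9, Cebpe and Prg2 were not used here. The 250 bases before the start of 6 genes are printed 5′ to 3′ on the gene's own strand. Mpo, Ngp and S100a9 lead their groups by mean RPKM, and Prg3 departs from Prg2 in its levels. Elane and Ltf were chosen because they hold matches to the motifs below, so the 6 are not a random sample. Capitals mark the letters TTGCNNAA (the C/EBP core), GAGGAA (the PU.1 core) or TGGGAA (the Ikaros core), searched on both strands. The sequences are those of Mpo (chr11:87793534-87793783, plus strand) and Elane (chr10:79886062-79886311, plus strand) for the azurophil stage, Ngp (chr9:110419558-110419807, plus strand) and Ltf (chr9:111019042-111019291, plus strand) for specific granules, S100a9 (chr3:90695722-90695971, minus strand) for late neutrophils and Prg3 (chr2:84987965-84988214, plus strand) for eosinophils.
Mpo: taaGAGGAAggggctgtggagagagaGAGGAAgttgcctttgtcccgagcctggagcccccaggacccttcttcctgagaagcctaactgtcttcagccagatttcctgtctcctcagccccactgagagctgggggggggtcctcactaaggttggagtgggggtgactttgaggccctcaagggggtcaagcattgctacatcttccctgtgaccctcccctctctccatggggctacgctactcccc
Elane: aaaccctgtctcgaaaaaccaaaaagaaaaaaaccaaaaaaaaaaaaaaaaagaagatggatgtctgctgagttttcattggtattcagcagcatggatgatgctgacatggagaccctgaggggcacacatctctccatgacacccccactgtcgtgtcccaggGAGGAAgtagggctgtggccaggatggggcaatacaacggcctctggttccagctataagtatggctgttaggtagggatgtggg
Ngp: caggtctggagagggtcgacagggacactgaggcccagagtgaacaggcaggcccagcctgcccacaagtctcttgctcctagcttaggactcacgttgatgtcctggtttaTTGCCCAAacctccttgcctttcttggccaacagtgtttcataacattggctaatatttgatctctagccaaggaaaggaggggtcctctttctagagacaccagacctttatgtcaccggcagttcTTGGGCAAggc
Ltf: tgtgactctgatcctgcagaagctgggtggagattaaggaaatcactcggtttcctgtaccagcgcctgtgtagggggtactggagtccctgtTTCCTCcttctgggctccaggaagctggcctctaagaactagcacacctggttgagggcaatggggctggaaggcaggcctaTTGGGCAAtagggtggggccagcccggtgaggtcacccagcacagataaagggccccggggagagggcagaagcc
S100a9: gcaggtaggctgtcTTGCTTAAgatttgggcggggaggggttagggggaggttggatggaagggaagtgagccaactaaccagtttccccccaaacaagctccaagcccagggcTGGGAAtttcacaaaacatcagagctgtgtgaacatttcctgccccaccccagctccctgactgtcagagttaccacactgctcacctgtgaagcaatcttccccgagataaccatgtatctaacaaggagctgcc
Prg3: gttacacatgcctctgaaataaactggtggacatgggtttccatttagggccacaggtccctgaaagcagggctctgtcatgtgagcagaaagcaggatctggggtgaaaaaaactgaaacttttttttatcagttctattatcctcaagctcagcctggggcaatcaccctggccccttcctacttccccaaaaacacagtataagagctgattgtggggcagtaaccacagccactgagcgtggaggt
Mpo carried 2 PU.1 matches, starting 247 and 224 bases before the start, and Elane carried 1 at 85 bases. Ngp held 2 C/EBP matches at 138 and 11 bases, Ltf a C/EBP match at 75 bases and a PU.1 match at 157 bases, and S100a9 a C/EBP match at 236 bases and an Ikaros match at 136 bases. Prg3 held none of the 3 motifs in this window.

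Over the 33 promoters, the C/EBP letters were present in 6 (18.2%), against 9.56% of all 32851 promoters in the table. They were in 4 of 6 specific granule genes (Lcn2, Ngp, Ltf and Mmp8), in S100a9 and Retnlg, and in 0 of 5 azurophil genes. The PU.1 letters were in 14 of 33 (42.4%), against 23.25% of all promoters, and in 4 of 5 azurophil genes (Mpo, Elane, Prtn3 and Ctsg). The Ikaros letters were in 8 of 33 (24.2%), against 21.59% of all. No matches of different motifs overlapped in these promoters. A match is a description of the letters and was not measured as binding.

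In fraction C, the ZnF1 library held at least 2-fold more than wt of all 40 genes, with a median log2 fold of 3.74 (13.4-fold). In fraction B, the ZnF1 library was below wt for 37 of the 40. The ZnF4 libraries were lower than wt for 37 genes in fraction B and for 32 in fraction C. The ZnF1 library of fraction C was the highest of the 6 libraries for all 40 genes, and the ZnF4 library of fraction B was the lowest for 34. Erythroid markers were also higher in the ZnF1 library of fraction C than in wt, 15 of 16 at least 2-fold, and their part in these results was not tested. In bulk RNA, more cells of a type and more RNA of its genes per cell cannot be told apart.

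**Figure D1:**
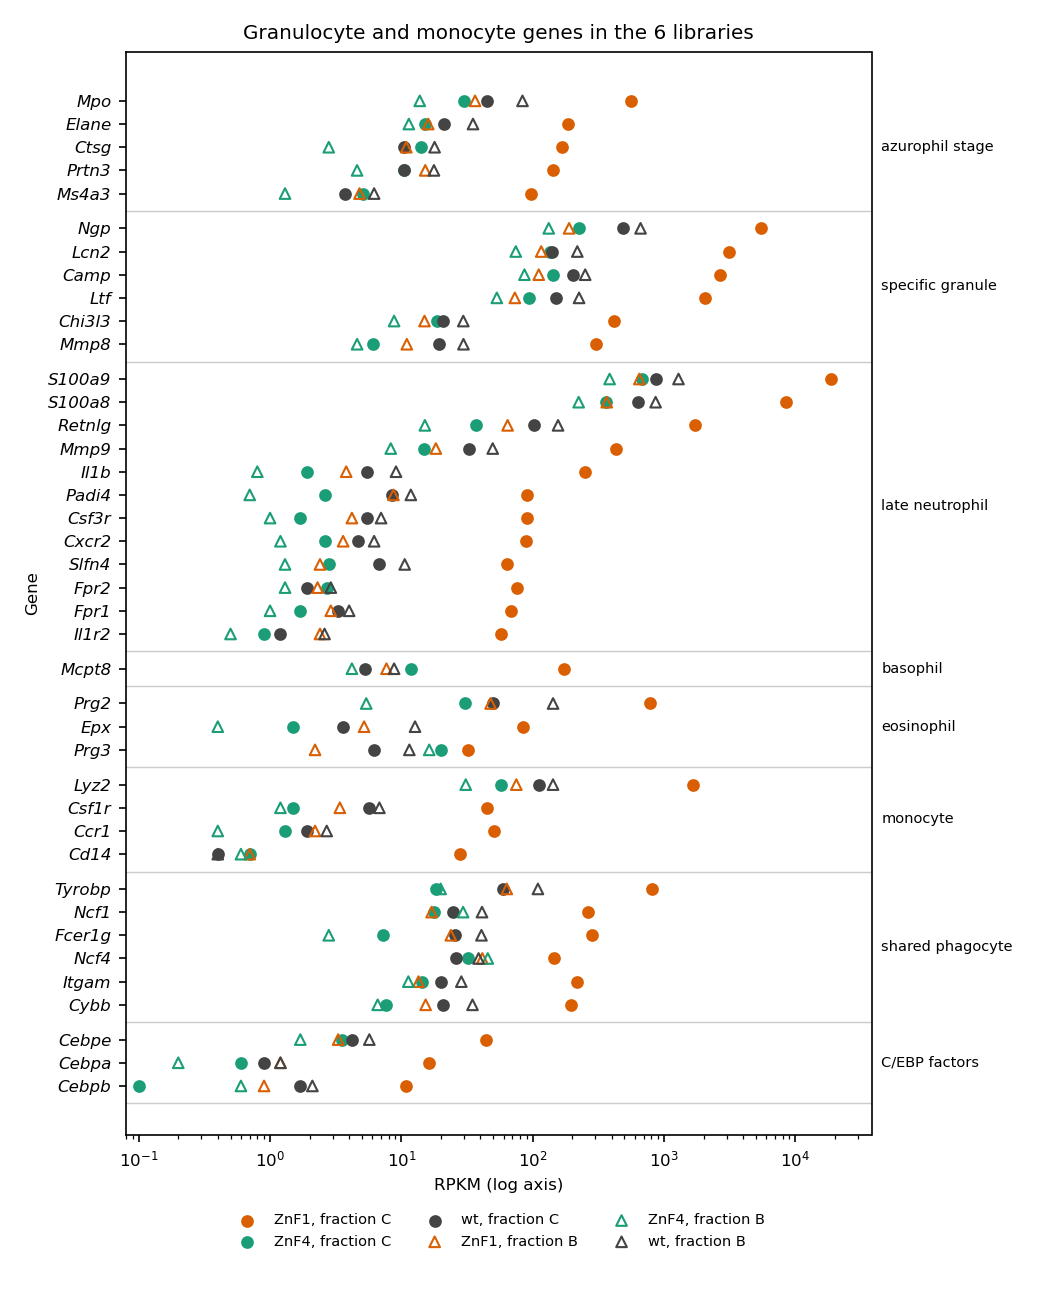
Level of each of the 40 genes in the 6 libraries, in RPKM on a log axis, with genes grouped by role; filled circles are fraction C, open triangles fraction B, and colours mark the genotype. The ZnF1 library of fraction C lies to the right of all others for every gene, and the ZnF4 library of fraction B is the lowest for 34 genes.

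Summed over the 40 genes, the level was 50014.9 (ZnF1), 2036.5 (ZnF4) and 3154.8 RPKM (wt) in fraction C and 2051.0 (ZnF1), 1211.7 (ZnF4) and 4619.5 RPKM (wt) in fraction B. Weighted by transcript length, which stands for reads, the genes made up 5.03% (ZnF1), 0.225% (ZnF4) and 0.367% (wt) of the listed total in fraction C and 0.225% (ZnF1), 0.147% (ZnF4) and 0.575% (wt) in fraction B. The genes were thus present in every library, wt included, and no member was listed at 0 anywhere. The smallest value was 0.1 RPKM, for Cebpb in the ZnF4 library of fraction C, and the largest was 18584.6 RPKM, for S100a9 in the ZnF1 library of fraction C. S100a9 and S100a8 were the first and second highest of all genes by RPKM in that library, and Ngp, Lcn2, Camp and Ltf ranked 4, 6, 7 and 10. These ranks hold among the values as listed: Gapdh, a glycolytic enzyme gene abundant in most cells, is listed at 1.3 RPKM in the same library, so some abundant genes have little signal in the table. Its level exceeded that of the next highest library by a median of 9.2 times over the 40 genes, with a range of 1.6 times (Prg3) to 40.1 times (Cd14).

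Folds below are differences of log2(RPKM + 1) between a pair of libraries, given as fold sizes, and they are smaller than RPKM ratios where levels are low. The background is the 10943 genes whose mean level reached 1 RPKM. All 40 genes passed this filter, but Cd14 and Cebpa passed it only through the ZnF1 library of fraction C. For ZnF1 against wt in fraction C, 40 of 40 were at least 2-fold higher, against 12.6% of all genes, and 0 were lower, against 7.39%; the median of all genes was -0.16 on the log2 scale. The folds of the 40 genes ran from 4.41-fold (Cebpb), 4.597-fold (Prg3) and 5.38-fold (Ncf4) to 27.4-fold (Mcpt8) and 38.9-fold (Il1b). For ZnF1 against wt in fraction B, 0 of 40 were at least 2-fold higher, near the background of 2.07%, and 17 were lower, against 2.21%. Their median was -0.91, with 0.04 for all genes.

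For ZnF4 against wt in fraction C, 2 of 40 (Mcpt8 and Prg3) were at least 2-fold higher, near the background of 3.55%, and 13 were lower, against 6.12%, with a median of -0.61 and -0.05 for all genes. In fraction B, 0 of 40 were higher, against 3.7% of all genes, and 32 were lower, against 9.81%, with a median of -1.74 and -0.09 for all genes. The 12 genes at least 2-fold below wt in both ZnF4 libraries were Ngp, Mmp8, Mmp9, Retnlg, Il1b, Padi4, Csf3r, Slfn4, Csf1r, Fcer1g, Tyrobp and Cybb. The share of all genes lower in both was not computed, so these genes are only listed. Scaled on B-lineage genes in place of library size, 22 genes were lower in ZnF4 in fraction C and 28 were lower in ZnF1 in fraction B. That scaling moved the median of all genes by -0.47 and -0.45 in these comparisons.

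**Figure D2:**
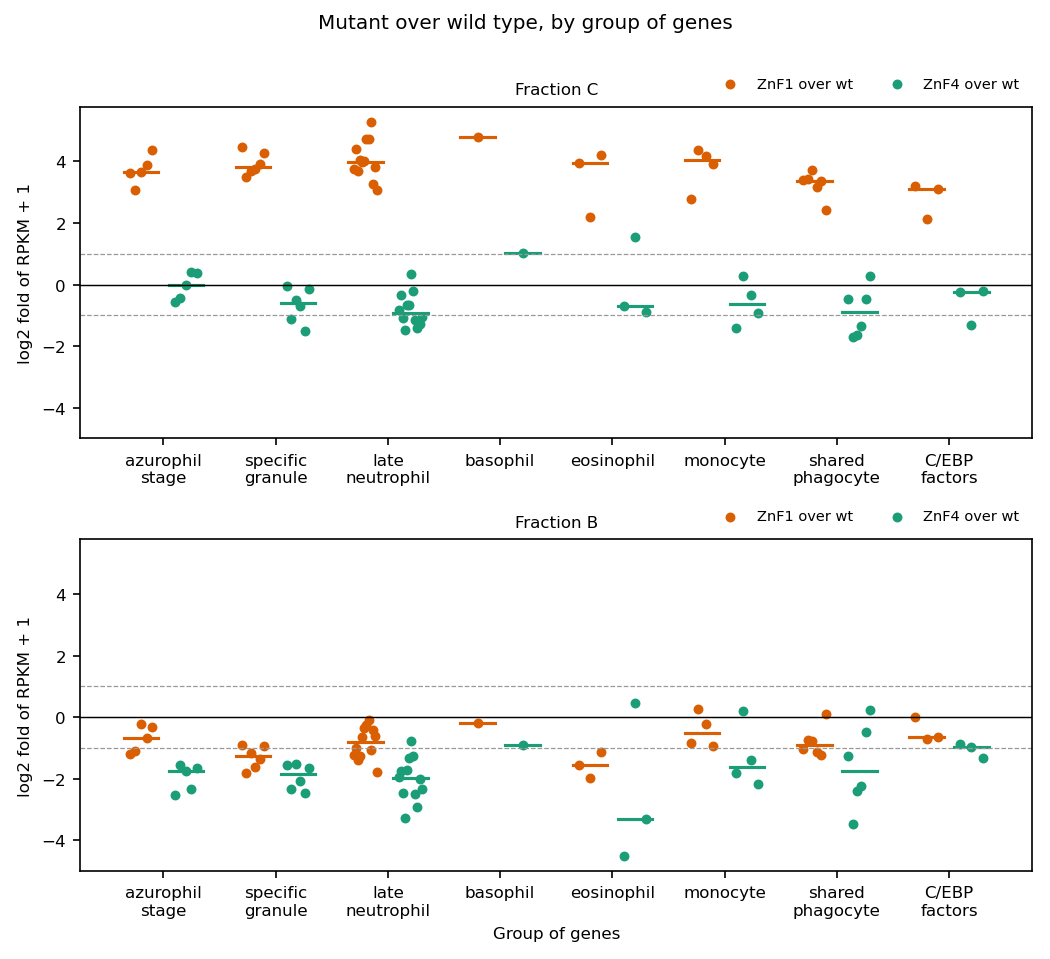
Log2 fold of RPKM + 1 of ZnF1 over wt and ZnF4 over wt in fraction C (top) and fraction B (bottom), by group; points are genes, bars the group median, dashed lines mark 2-fold. All ZnF1 points in fraction C lie above 2, whereas 37 of 40 ZnF4 points in fraction B lie below 0, as did 6111 of all 10943 genes.

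Fraction C was next compared with fraction B within each genotype. These are differences between sorted pools, and the part of the proB stage in them was not tested. In ZnF1, 40 of 40 were at least 2-fold higher in fraction C, against 10.1% of all genes, and 0 were lower, against 4.16%, with a median log2 fold of 4.09 (16.97-fold) and -0.16 for all genes. In ZnF4, 10 were at least 2-fold higher, against 2.76%, and 0 were lower, near the background of 0.585%, with a median of 0.72 and 0.11 for all genes. In wt, 0 were higher, near the background of 0.338%, and 2 (Prg2 and Epx) were lower, against 1.01%, with a median of -0.57 and 0.06 for all genes. Thus 39 of 40 genes were higher in fraction C than B in ZnF1 and lower in wt, the exception being Cd14, which stood at 0.4 RPKM in both wt libraries. In ZnF4, 35 of 40 were higher in fraction C and lower in wt, the exceptions being Cd14, Tyrobp, Ncf1, Ncf4 and Cebpb. Of all 10943 genes, 3964 were higher in fraction C in ZnF1 and 6711 in ZnF4, and 4474 were lower in wt. The share of all genes with both signs was not computed. These differences between genotypes have no replicate behind them and were not tested.

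**Figure D3:**
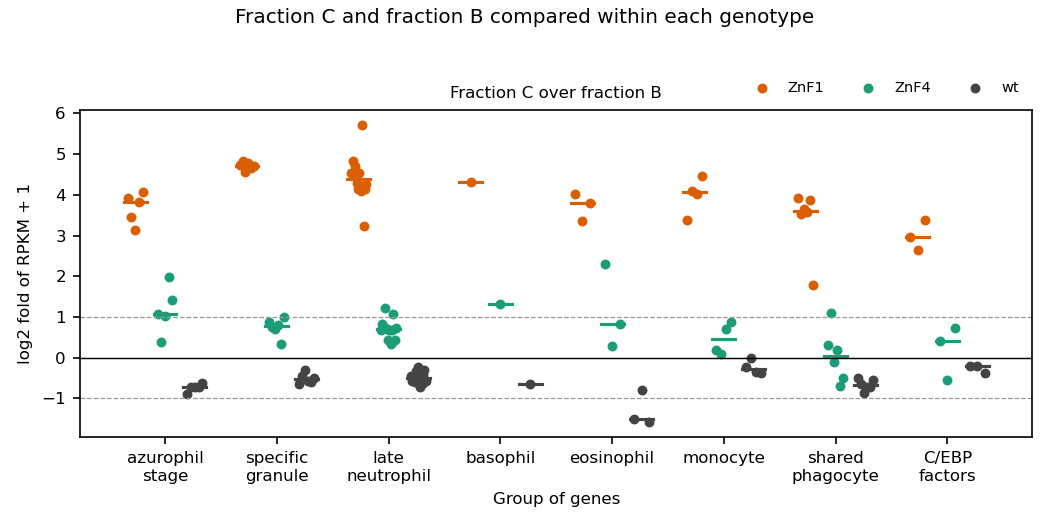
Log2 fold of RPKM + 1 of fraction C over fraction B in ZnF1, ZnF4 and wt, by group; points are genes, bars the group median, dashed lines mark 2-fold. The ZnF1 points lie between 1.79 and 5.72, most ZnF4 points lie between 0 and 2, and the wt points lie at or below 0.

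Of the azurophil stage, Mpo encodes myeloperoxidase, which makes hypochlorous acid. It stood at 564.5 (ZnF1), 30.0 (ZnF4) and 44.8 RPKM (wt) in fraction C and at 36.4 (ZnF1), 13.8 (ZnF4) and 83.6 RPKM (wt) in fraction B. Elane, neutrophil elastase, stood at 185.3 (ZnF1), 15.2 (ZnF4) and 21.1 RPKM (wt) in fraction C and at 16.0 (ZnF1), 11.4 (ZnF4) and 35.1 RPKM (wt) in fraction B. Both were far above the rest in the ZnF1 library of fraction C, by 12.3-fold and 8.43-fold over wt, and below wt in the other 3 mutant libraries. The protease genes Prtn3 and Ctsg, for proteinase 3 and cathepsin G, were 12.6-fold and 14.7-fold higher in ZnF1 than wt in fraction C. Ctsg stood at 167.7 (ZnF1), 14.1 (ZnF4) and 10.5 RPKM (wt) in fraction C and at 10.9 (ZnF1), 2.8 (ZnF4) and 17.9 RPKM (wt) in fraction B. Here the ZnF4 library of fraction C was above wt, while that of fraction B was 4.97-fold lower.

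Prtn3 stood at 142.8 (ZnF1), 10.4 (ZnF4) and 10.4 RPKM (wt) in fraction C and at 15.2 (ZnF1), 4.6 (ZnF4) and 17.7 RPKM (wt) in fraction B, with ZnF4 and wt equal in fraction C. Ms4a3, a membrane protein of granulocyte-monocyte progenitors, stood at 96.6 (ZnF1), 5.1 (ZnF4) and 3.7 RPKM (wt) in fraction C and at 4.8 (ZnF1), 1.3 (ZnF4) and 6.2 RPKM (wt) in fraction B. Its ZnF1 level in fraction C was 20.8-fold above wt, the largest fold of the 5 azurophil genes. Azurophil genes thus had a median log2 fold of 0.00 for ZnF4 against wt in fraction C and of -1.74 in fraction B, where 5 of 5 were at least 2-fold lower. Within ZnF4, 4 of 5 (all but Elane) were at least 2-fold higher in fraction C than in fraction B, 3.97-fold for Ctsg and 2.65-fold for Ms4a3. In wt all 5 were lower in fraction C, by 1.53-fold to 1.85-fold.

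Among the specific granule genes, Ngp, a cystatin-like granule protein, had the highest level, at 5458.0 (ZnF1), 224.7 (ZnF4) and 487.4 RPKM (wt) in fraction C and at 189.3 (ZnF1), 132.5 (ZnF4) and 662.5 RPKM (wt) in fraction B. Lcn2, which binds bacterial siderophores, stood at 3126.6 (ZnF1), 136.4 (ZnF4) and 139.6 RPKM (wt) in fraction C and at 116.1 (ZnF1), 74.3 (ZnF4) and 218.6 RPKM (wt) in fraction B. In fraction C the ZnF4 library equalled wt for Lcn2 within 1.02-fold, and was 2.16-fold lower for Ngp. Ltf, lactoferrin, which binds iron, stood at 2036.4 (ZnF1), 94.2 (ZnF4) and 151.4 RPKM (wt) in fraction C and at 73.1 (ZnF1), 53.3 (ZnF4) and 225.4 RPKM (wt) in fraction B. Camp, the cathelicidin gene, stood at 2656.7 (ZnF1), 142.8 (ZnF4) and 204.2 RPKM (wt) in fraction C and at 111.2 (ZnF1), 86.5 (ZnF4) and 251.0 RPKM (wt) in fraction B. For Ltf and Camp, as for Ngp, the order in both fractions put ZnF4 below wt. Mmp8, neutrophil collagenase, stood at 304.7 (ZnF1), 6.1 (ZnF4) and 19.2 RPKM (wt) in fraction C and at 11 (ZnF1), 4.6 (ZnF4) and 29.7 RPKM (wt) in fraction B. Chi3l3, the chitinase-like protein Ym1, stood at 415.1 (ZnF1), 18.6 (ZnF4) and 20.8 RPKM (wt) in fraction C and at 15.0 (ZnF1), 8.8 (ZnF4) and 29.6 RPKM (wt) in fraction B. In fraction C, ZnF1 exceeded wt by 13.4-fold for Ltf, 12.95-fold for Camp, 15.1-fold for Mmp8 and 19.1-fold for Chi3l3, against 11.2-fold for Ngp and 22.2-fold for Lcn2.

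All 6 specific granule genes had the same order in fraction B, with ZnF4 lowest, ZnF1 between and wt highest. There 4 of 6 were at least 2-fold lower in ZnF1 than in wt (3.49-fold for Ngp) and 6 of 6 in ZnF4 (5.48-fold for Mmp8). Within ZnF1, the 6 genes were 23.7-fold to 28.7-fold higher in fraction C than in fraction B. Chi3l3 has a near-identical copy, Chi3l4, which was listed at 0 in all libraries, so reads of the pair may have been divided or dropped and the level of Chi3l3 is uncertain.

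S100a8 and S100a9 encode the 2 chains of calprotectin, the main cytosolic protein of neutrophils. S100a9 stood at 18584.6 (ZnF1), 684.3 (ZnF4) and 870.3 RPKM (wt) in fraction C and at 648.9 (ZnF1), 385.2 (ZnF4) and 1288.6 RPKM (wt) in fraction B. For S100a8 the levels were 8493.0 (ZnF1), 359.3 (ZnF4) and 631.1 RPKM (wt) in fraction C and 366.1 (ZnF1), 223.9 (ZnF4) and 862.7 RPKM (wt) in fraction B. The ZnF1 library of fraction C was 21.3-fold above wt for S100a9 and 13.4-fold for S100a8, and the remaining 5 libraries lay within 385.2 to 1288.6 RPKM and 223.9 to 862.7 RPKM. The resistin-like gene Retnlg stood at 1709.8 (ZnF1), 36.7 (ZnF4) and 102.8 RPKM (wt) in fraction C and at 64.4 (ZnF1), 15.1 (ZnF4) and 156.0 RPKM (wt) in fraction B. It was lower in ZnF4 than in wt by 2.75-fold in fraction C and 9.75-fold in fraction B. Mmp9, gelatinase B, stood at 433.5 (ZnF1), 14.8 (ZnF4) and 32.8 RPKM (wt) in fraction C and at 18.3 (ZnF1), 8.3 (ZnF4) and 49.6 RPKM (wt) in fraction B. Its 6 libraries were in the same order as those of Retnlg, and ZnF1 was 12.9-fold above wt in fraction C.

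Of the other late genes, Il1b, the inflammatory cytokine IL-1β, had the largest fold of the 40, 38.9-fold for ZnF1 over wt in fraction C, and the third largest of all 10943 genes. It stood at 251.6 (ZnF1), 1.9 (ZnF4) and 5.5 RPKM (wt) in fraction C and at 3.8 (ZnF1), 0.8 (ZnF4) and 9.1 RPKM (wt) in fraction B. Il1r2, the decoy receptor of IL-1, stood at 57.4 (ZnF1), 0.9 (ZnF4) and 1.2 RPKM (wt) in fraction C and at 2.4 (ZnF1), 0.5 (ZnF4) and 2.6 RPKM (wt) in fraction B. These low levels outside the ZnF1 library of fraction C, rounded to 0.1 RPKM, leave their folds imprecise. The chemoattractant receptors Fpr1, Fpr2 and Cxcr2 were 16.05-fold, 26.7-fold and 15.7-fold higher in ZnF1 than wt in fraction C, with 68.0 to 88.5 RPKM in that library and at most 6.2 RPKM elsewhere. Fpr2, neighbour of Fpr1 on chromosome 17, was above wt in the ZnF4 library of fraction C, at 2.7 RPKM in ZnF4 and 1.9 RPKM in wt, while Fpr1 was at 1.7 RPKM in ZnF4 and 3.3 RPKM in wt.

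Csf3r, the G-CSF receptor, stood at 90.4 (ZnF1), 1.7 (ZnF4) and 5.5 RPKM (wt) in fraction C and at 4.2 (ZnF1), 1.0 (ZnF4) and 7.0 RPKM (wt) in fraction B. Padi4, the enzyme that citrullinates histones, stood at 90.9 (ZnF1), 2.6 (ZnF4) and 8.5 RPKM (wt) in fraction C and at 8.7 (ZnF1), 0.7 (ZnF4) and 11.8 RPKM (wt) in fraction B. Slfn4, a Schlafen family gene, stood at 64.1 (ZnF1), 2.8 (ZnF4) and 6.8 RPKM (wt) in fraction C and at 2.4 (ZnF1), 1.3 (ZnF4) and 10.6 RPKM (wt) in fraction B. In all 3 the ZnF1 library of fraction C was highest, 14.1-fold, 9.67-fold and 8.35-fold above wt, and the ZnF4 library of fraction B lowest. Csf3r, Padi4 and Slfn4 were 4.0-fold, 7.53-fold and 5.04-fold lower in ZnF4 than wt in fraction B.

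Mcpt8, a basophil protease, stood at 171.7 (ZnF1), 11.9 (ZnF4) and 5.3 RPKM (wt) in fraction C and at 7.7 (ZnF1), 4.2 (ZnF4) and 8.8 RPKM (wt) in fraction B. It was 27.4-fold above wt in the ZnF1 library of fraction C. In the ZnF4 library of fraction C it was 2.05-fold above wt, while in that of fraction B it was 1.88-fold below. Prg2, the eosinophil major basic protein, stood at 787.4 (ZnF1), 30.6 (ZnF4) and 49.8 RPKM (wt) in fraction C and at 47.8 (ZnF1), 5.4 (ZnF4) and 142.9 RPKM (wt) in fraction B. Its ZnF4 level in fraction B was 22.5-fold below wt, the largest such fold of the 40 genes. Epx, eosinophil peroxidase, stood at 84.7 (ZnF1), 1.5 (ZnF4) and 3.6 RPKM (wt) in fraction C and at 5.2 (ZnF1), 0.4 (ZnF4) and 12.7 RPKM (wt) in fraction B. In fraction B it was 9.79-fold lower in ZnF4 than wt. In wt, Prg2 and Epx were 2.83-fold and 2.98-fold lower in fraction C than in fraction B.

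Prg3, the relative of Prg2 also found in eosinophil granules, stood at 32.1 (ZnF1), 20.1 (ZnF4) and 6.2 RPKM (wt) in fraction C and at 2.2 (ZnF1), 16.3 (ZnF4) and 11.5 RPKM (wt) in fraction B. It was 2.93-fold higher in ZnF4 than wt in fraction C and 1.38-fold higher in fraction B, where Prg2 and Epx were lower. In ZnF1 it was 3.91-fold below wt in fraction B, the largest such fold of the 40 genes. The ratio of Prg2 to Prg3 RPKM was 24.5 (ZnF1), 1.52 (ZnF4) and 8.03 (wt) in fraction C and 21.7 (ZnF1), 0.331 (ZnF4) and 12.4 (wt) in fraction B. The ratio was thus above wt in both ZnF1 libraries and below wt in both ZnF4 libraries. Prg2 and Prg3 are neighbours on chromosome 2 with 0 protein-coding genes between them in the RefSeq annotation, and of the 11 gene ratios computed theirs had the widest range over the 6 libraries, 74.1-fold.

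Of the monocyte genes, Lyz2, lysozyme, stood at 1671.6 (ZnF1), 57.7 (ZnF4) and 110.7 RPKM (wt) in fraction C and at 75.0 (ZnF1), 30.9 (ZnF4) and 142.8 RPKM (wt) in fraction B. Its copy Lyz1 was at 1.7 RPKM or less, so reads shared by the pair may affect the level. Csf1r, the CSF1 receptor, stood at 45.0 (ZnF1), 1.5 (ZnF4) and 5.7 RPKM (wt) in fraction C and at 3.4 (ZnF1), 1.2 (ZnF4) and 6.8 RPKM (wt) in fraction B. It was 6.87-fold higher in ZnF1 than wt in fraction C. Cd14, the lipopolysaccharide co-receptor, stood at 28.1 (ZnF1), 0.7 (ZnF4) and 0.4 RPKM (wt) in fraction C and at 0.7 (ZnF1), 0.6 (ZnF4) and 0.4 RPKM (wt) in fraction B. Only the ZnF1 library of fraction C held more than 0.7 RPKM of it. Ccr1, a chemokine receptor, stood at 51.1 (ZnF1), 1.3 (ZnF4) and 1.9 RPKM (wt) in fraction C and at 2.2 (ZnF1), 0.4 (ZnF4) and 2.7 RPKM (wt) in fraction B. It was 17.97-fold higher in ZnF1 than wt in fraction C and 2.64-fold lower in ZnF4 than wt in fraction B.

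The shared phagocyte genes include the signalling chains Fcer1g and Tyrobp, the integrin chain Itgam (CD11b) and subunits of the NADPH oxidase. Tyrobp stood at 804.7 (ZnF1), 18.5 (ZnF4) and 59.6 RPKM (wt) in fraction C and at 63.5 (ZnF1), 19.9 (ZnF4) and 109.6 RPKM (wt) in fraction B. Fcer1g stood at 283.4 (ZnF1), 7.2 (ZnF4) and 25.5 RPKM (wt) in fraction C and at 23.8 (ZnF1), 2.8 (ZnF4) and 40.7 RPKM (wt) in fraction B. Both were lower in ZnF4 than wt, by 3.11-fold and 3.23-fold in fraction C and by 5.29-fold and 10.97-fold in fraction B. Itgam stood at 218.4 (ZnF1), 14.4 (ZnF4) and 20.1 RPKM (wt) in fraction C and at 13.5 (ZnF1), 11.3 (ZnF4) and 28.6 RPKM (wt) in fraction B. It was 10.4-fold higher in ZnF1 than wt in fraction C, and the other 5 libraries lay between 11.3 and 28.6 RPKM.

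The oxidase subunits differed among themselves. Cybb (gp91phox), the membrane subunit that carries electrons to oxygen, stood at 194.3 (ZnF1), 7.6 (ZnF4) and 20.7 RPKM (wt) in fraction C and at 15.3 (ZnF1), 6.6 (ZnF4) and 34.8 RPKM (wt) in fraction B. Ncf1 (p47phox), the cytosolic organiser, stood at 263.2 (ZnF1), 17.7 (ZnF4) and 24.8 RPKM (wt) in fraction C and at 17.0 (ZnF1), 29.5 (ZnF4) and 41.1 RPKM (wt) in fraction B. Ncf4 (p40phox), its cytosolic partner, stood at 145.4 (ZnF1), 32.0 (ZnF4) and 26.2 RPKM (wt) in fraction C and at 41.3 (ZnF1), 45.5 (ZnF4) and 38.7 RPKM (wt) in fraction B. Ncf4 was 5.38-fold higher in ZnF1 than wt in fraction C, less than the 9.0-fold of Cybb and the 10.2-fold of Ncf1, and in fraction B all 3 genotypes lay between 38.7 and 45.5 RPKM. In ZnF4, Cybb was 4.71-fold lower than wt in fraction B, Ncf1 1.38-fold lower and Ncf4 1.17-fold higher. The Ncf4 to Cybb ratio was 0.748 (ZnF1), 4.21 (ZnF4) and 1.27 (wt) in fraction C and 2.70 (ZnF1), 6.89 (ZnF4) and 1.11 (wt) in fraction B.

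The C/EBP factors had low levels. Cebpe, needed for specific granules, stood at 44.1 (ZnF1), 3.5 (ZnF4) and 4.2 RPKM (wt) in fraction C and at 3.3 (ZnF1), 1.7 (ZnF4) and 5.7 RPKM (wt) in fraction B. Cebpa, which starts the granulocyte programme, stood at 16.3 (ZnF1), 0.6 (ZnF4) and 0.9 RPKM (wt) in fraction C and at 1.2 (ZnF1), 0.2 (ZnF4) and 1.2 RPKM (wt) in fraction B, and Cebpb, used in monocytes and emergency granulopoiesis, at 10.9 (ZnF1), 0.1 (ZnF4) and 1.7 RPKM (wt) in fraction C and at 0.9 (ZnF1), 0.6 (ZnF4) and 2.1 RPKM (wt) in fraction B. In fraction C, ZnF1 was 8.67-fold, 9.11-fold and 4.41-fold above wt. All other libraries held 5.7 RPKM or less of each. Their ZnF4 values were below wt in both fractions, at least 2-fold for Cebpb in fraction C and for Cebpe in fraction B.

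Several ratios between genes varied less over the 6 libraries than the summed level of the 40 genes, whose range was 41.3-fold, whereas the ratio of Prg2 to Prg3 varied more. Over the 40 genes, log2(RPKM + 1) of pairs of libraries had a Pearson r of 0.869 (ZnF1 in fraction C and ZnF4 in fraction B) to 0.993 (both wt libraries), as a description, since the genes share their own typical level in all libraries. Ngp stood at 2.38 to 3.22 times Ltf in the 6 libraries and S100a9 at 1.38 to 2.19 times S100a8. Azurophil genes summed to 8.27% (ZnF1), 12.01% (ZnF4) and 8.85% (wt) of the specific granule genes in fraction C and to 16.2% (ZnF1), 9.42% (ZnF4) and 11.3% (wt) in fraction B. The sums of both groups in the ZnF1 library of fraction C were therefore higher than wt in nearly the same proportion. Ctsg and Mcpt8, adjacent on chromosome 14, had a ratio of 0.667 to 2.03.

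**Figure D4:**
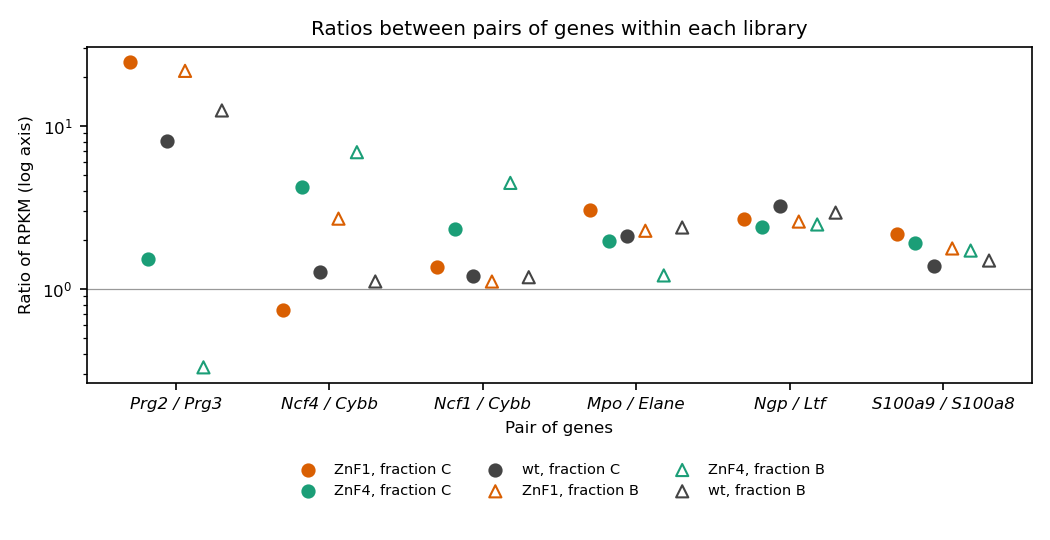
Ratio of RPKM of 6 pairs of genes within each library, on a log axis; filled circles are fraction C, open triangles fraction B, and colours mark the genotype. Prg2 to Prg3 runs from 0.331 to 24.5 and Ncf4 to Cybb from 0.748 to 6.89, while Ngp to Ltf stays within 2.38 to 3.22.

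The 6 libraries together were modelled in limma (lmFit, then eBayes with trend) on log2(RPKM + 1), with additive effects of genotype and fraction and 2 residual degrees of freedom. With Benjamini-Hochberg adjustment over 10943 genes, 0 of the 40 genes passed an adjusted p of 0.05 for ZnF1 against wt as higher (background 0.00914%) or lower (0.0183%), and 0 had an unadjusted p under 0.05. Of all genes, 546 were higher and 472 lower at that unadjusted p in limma. For ZnF4 against wt, 0 passed as higher (0.00914%) or lower (0.0183%), and for fraction C against B 0 passed in either direction (0% of all genes), again with 0 members at an unadjusted p under 0.05. At that unadjusted p, 864 of all genes were higher and 1066 lower for ZnF4, and 201 higher and 310 lower for fraction C against B. The smallest adjusted p of a member in limma was 0.542 for ZnF1, 0.295 for ZnF4 and 0.854 for fraction C against B. The model's error measures how far a genotype's difference from wt varied from fraction to fraction, and so takes in the opposite signs of ZnF1 in fractions C and B. S100a9 had a log2 fold of 1.71 with an SE of 1.37 (limma adjusted p = 0.604).

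The limma calls rested on single libraries. Without the ZnF1 library of fraction C, 21 of 40 genes passed as lower in ZnF4 than wt, against 19.3% of all genes, and 0 as higher, against 12.2%; for ZnF1 against wt 0 passed as higher (background 0.064%) or lower (0.0822%), with 11 lower at an unadjusted p under 0.05. The lone ZnF1 library left is then assumed to vary like the other groups. A fit without a library has fewer residual degrees of freedom than the 2 of the full model, so its spread rests on fewer comparisons. By group, the log2 folds of ZnF4 against wt ran from -1.54 (Mpo) to -0.64 (Ms4a3) for azurophil genes and from -1.98 (Mmp8) to -0.79 (Lcn2) for specific granule genes. Late neutrophil genes ran from -2.37 (Retnlg) to -0.21 (Fpr2). Of the eosinophil genes, Prg2 stood at -2.59, Epx at -2.09 and Prg3 at 1.01, and the basophil gene Mcpt8 at 0.06. In this fit Tyrobp was lower in ZnF4 than wt by 2.02 on the log2 scale (lower in 2 of 2 fractions), Csf1r by 1.62 and Ngp by 1.71. Over all alternatives, the limma adjusted p ran from 0.00685 to 1 for Tyrobp, from 0.00823 to 1 for Csf1r and from 0.0181 to 1 for Ngp. Without the ZnF1 library of fraction B, ZnF4 against wt rests on the same wt and ZnF4 libraries as without that of fraction C. That fit is therefore not a second result for ZnF4. For ZnF1, it compares the ZnF1 library of fraction C alone with wt.

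Other genes of the same lineages were taken from 5 further lists with 113 genes between them, of which 111 were in the table and 98 passed the filter. In fraction C, 82 of these 98 were at least 2-fold higher in ZnF1 than wt and 0 lower, with a median log2 fold of 2.76. Some of the 98 passed the filter only through the ZnF1 library of fraction C, which raises this count and the counts by list below. Among them were Ms4a6d (23.6 RPKM there, at most 1.6 elsewhere) and Stfa2l1 (5.6 RPKM there, at most 1.7 elsewhere). In fraction B, 4 were higher and 12 lower in ZnF1, with a median of -0.27. For ZnF4, 3 were higher and 19 lower in fraction C, and 2 were higher and 46 lower in fraction B, with medians of -0.32 and -0.95. Over all genes past the filter, 12.6% were higher and 7.39% lower in ZnF1 than wt in fraction C, and 2.07% higher and 2.21% lower in fraction B. For ZnF4 these shares were 3.55% higher and 6.12% lower in fraction C, and 3.7% higher and 9.81% lower in fraction B, so that the 3 and 2 higher genes were not above the background. By list, ZnF1 exceeded wt at least 2-fold in fraction C for 26 of 26 neutrophil genes, 26 of 27 monocyte and macrophage genes, 11 of 13 basophil, mast cell and eosinophil genes, 10 of 18 regulators and cytokine receptors and 10 of 15 oxidase and azurophil partners, with Hp counted in 2 lists. Without the filter, the median log2 folds of the neutrophil, the monocyte and macrophage, and the basophil, mast cell and eosinophil lists were 3.53, 2.52 and 2.30.

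The histidine decarboxylase gene Hdc had the largest of these folds in the neutrophil list, 24.5-fold, at 156.1 (ZnF1), 3.8 (ZnF4) and 5.4 RPKM (wt) in fraction C and at 6.1 (ZnF1), 2.0 (ZnF4) and 9.4 RPKM (wt) in fraction B. The basophil protease Prss34 stood at 219.6 (ZnF1), 14.4 (ZnF4) and 11.2 RPKM (wt) in fraction C and at 12.1 (ZnF1), 9.5 (ZnF4) and 15.8 RPKM (wt) in fraction B. In both genes the ZnF1 library of fraction C was the highest of the 6. Among the regulators, Nfe2, a bZIP factor of megakaryocytes and red cells, was 11.9-fold and Egr1, an immediate early factor, 11.3-fold higher in ZnF1 than wt in fraction C, whereas Myb, a factor of progenitors, was 1.86-fold lower. Genes above wt by less than 2-fold there included Irf5 (1.58-fold) of the monocyte and macrophage list. Kit (1.42-fold) and Il5ra (1.9-fold) of the basophil, mast cell and eosinophil list were also below 2-fold. So were Calr (1.12-fold) and Plac8 (1.495-fold) of the oxidase and azurophil partners. Why these genes had smaller folds was not tested.

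**Figure D5:**
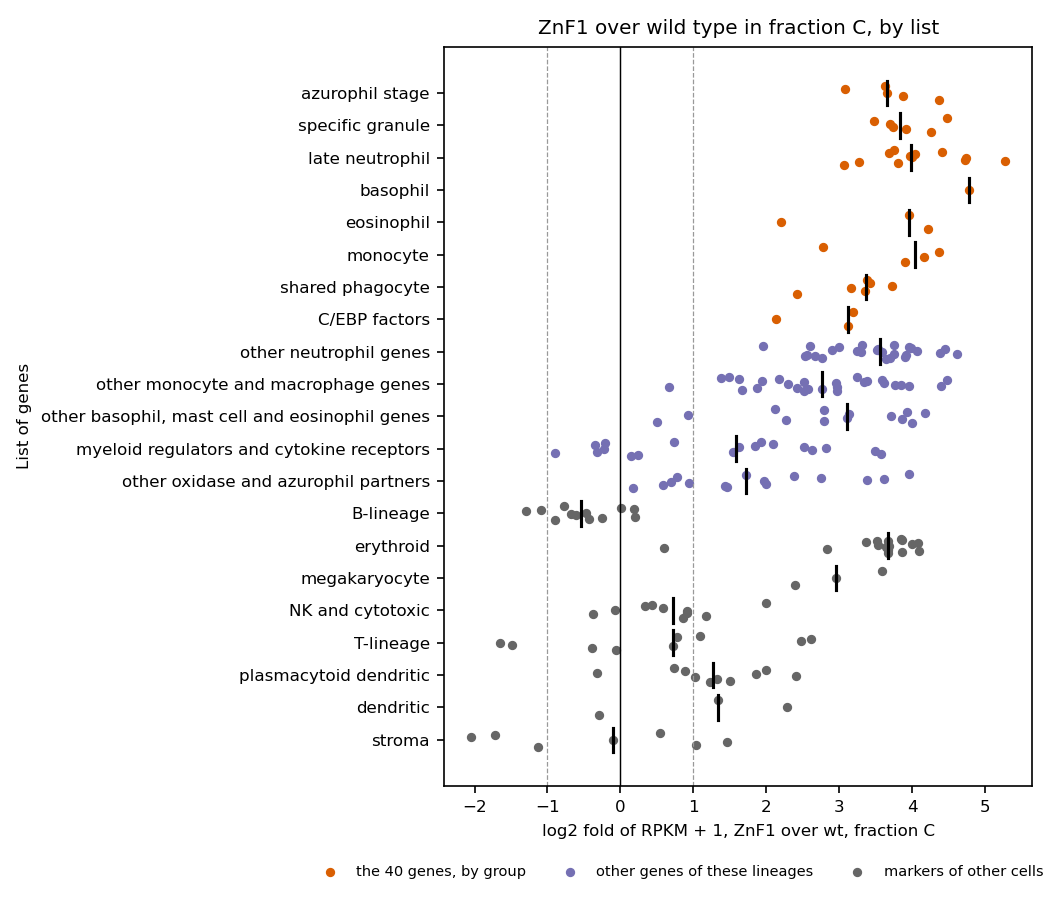
Log2 fold of RPKM + 1 of ZnF1 over wt in fraction C for the 40 genes by group, for other genes of the same lineages and for markers of other cells; points are genes past the filter, bars medians, dashed lines mark 2-fold. The groups of the 40 genes have medians of 3.12 to 4.78, other neutrophil genes 3.56, erythroid genes 3.67 and B-lineage genes -0.54. The 3 megakaryocyte markers, like some genes of the other lists, passed the filter only through the ZnF1 library of fraction C.

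Markers of other marrow cells varied beside these genes. Of 16 erythroid markers, 15 were at least 2-fold higher in ZnF1 than wt in fraction C (median log2 fold 3.67), against 12.6% of all genes. In fraction B, 7 were lower in ZnF1, against 2.21%. In ZnF4, 6 in fraction C and 14 in fraction B were lower, against 6.12% and 9.81%. Their summed level was 2531.8 (ZnF1), 179.8 (ZnF4) and 259.9 RPKM (wt) in fraction C and 149.9 (ZnF1), 123.7 (ZnF4) and 289.2 RPKM (wt) in fraction B, with 0 of 16 listed at 0 in any library. The red cell haem enzyme gene Alas2 stood at 493.8 (ZnF1), 18.4 (ZnF4) and 28.3 RPKM (wt) in fraction C and at 19.8 (ZnF1), 9.9 (ZnF4) and 40.7 RPKM (wt) in fraction B. The summed erythroid markers thus had the same order of libraries in fraction C, ZnF1 over wt over ZnF4, as 32 of the 40 genes.

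Of 10 megakaryocyte markers, 3 passed the filter, and only through the ZnF1 library of fraction C. No marker of this list exceeded 1.0 RPKM in any other library. That all 3 were at least 2-fold higher in ZnF1 than wt in fraction C was therefore largely set by the filter. The 10 markers summed to 46.1 (ZnF1), 3.6 (ZnF4) and 2.9 RPKM (wt) in fraction C and to 2.7 (ZnF1), 1.9 (ZnF4) and 3.6 RPKM (wt) in fraction B. Gp6 and Treml1 were listed at 0 in at least 4 libraries. The 10 markers of NK and cytotoxic cells summed to 124.5 (ZnF1), 9.8 (ZnF4) and 54.1 RPKM (wt) in fraction C and to 64.8 (ZnF1), 2.6 (ZnF4) and 104.6 RPKM (wt) in fraction B, with 7 of 10 listed at 0 in the ZnF4 library of fraction B, Ncr1, Gzma and Gzmb among them. Of these 10, 2 were at least 2-fold higher in ZnF1 than wt in fraction C (median log2 fold 0.72), near the background of 12.6% of all genes. In ZnF4, 9 in fraction C and 10 in fraction B were at least 2-fold lower than wt, against 6.12% and 9.81% of all genes. Of 10 plasmacytoid dendritic cell markers, 7 were at least 2-fold higher in ZnF1 than wt in fraction C (median log2 fold 1.28) and 0 in fraction B, and 4 in fraction C and 6 in fraction B (median -2.04) were lower in ZnF4. They summed to 328.8 (ZnF1), 176.4 (ZnF4) and 175.8 RPKM (wt) in fraction C and to 331.7 (ZnF1), 222.2 (ZnF4) and 263.0 RPKM (wt) in fraction B. Of the 9 T-lineage markers past the filter, 3 were higher and 2 lower in ZnF1 than wt in fraction C, and 2 in fraction C and 5 in fraction B were lower in ZnF4, where Cd3e and Cd3g were listed at 0 in fraction B. The 7 dendritic cell markers, 3 of them past the filter, summed to 40.2 (ZnF1), 20.4 (ZnF4) and 26.5 RPKM (wt) in fraction C and to 60.0 (ZnF1), 27.4 (ZnF4) and 34.7 RPKM (wt) in fraction B. Of the 7 stromal markers past the filter, 2 were higher and 3 lower in ZnF1 than wt in fraction C (median log2 fold -0.10). Of the 12 B-lineage markers, 2 (Pax5 and Ebf1) were at least 2-fold lower in ZnF1 than wt in fraction C and 11 of 12 were at least 2-fold lower in fraction C than in fraction B within ZnF1. For these lists, the shares of all genes in ZnF1 against wt were 12.6% higher and 7.39% lower in fraction C, and 2.07% higher in fraction B. In ZnF4, 6.12% were lower in fraction C and 9.81% in fraction B. Within ZnF1, 4.16% were lower in fraction C than in fraction B. The part that other cell types, the sort or the make-up of a single library had in the levels of the 40 genes was not tested.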

How the data were processed

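Total RNA of 6 libraries was sequenced after Illumina TruSeq preparation, per the labels. The deposited values are RPKM for each RefSeq transcript, as the authors computed them and per the file headers, rounded to 0.1. The submitters' processing notes list TopHat, bedtools and build mm9 with no version. The reads in the denominator, strand use and the treatment of shared reads are not given in the sources used. Depth is unknown, so no counting interval is given.

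Of 26532 rows, 1 without a gene name was left out, and 0 columns belonged to other samples. Each of 22098 symbols was represented by its transcript of highest mean, and the 10943 genes whose mean over the 6 libraries reached 1 RPKM formed the background. Groups came from titles and genotype and stage labels. Folds are differences of log2(RPKM + 1), counted at 2-fold. With 1 library per group these counts have no test. limma 3.58.1 in R 4.3.3 (2 residual degrees of freedom with all 6 libraries, two-sided, Benjamini-Hochberg) gave the only p-values, which measure the spread between these libraries. It was tested on simulated data. Tables were made with Python 3.11.15 and pandas 2.3.3.

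The 40 genes, the other lists and the tests were chosen with earlier results of these data known. All 40 genes may be named, and from each other list the extreme 2 genes at each end of the fold of ZnF1 over wt in fraction C. Of the listed genes, Ly6g and Wfdc21 were not analysed here. Alternatives were pseudocounts of 0.25 and 4, no filter, summed transcripts, scaling on B-lineage genes or on all genes, and leaving out each library; a filter over the 5 libraries other than ZnF1 in fraction C was added after seeing the data. Promoters are from RefSeq, build GRCm38.p6, which is not the build of the files, so positions apply to the sequences alone.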

Additional observations from a re-analysis of the deposited data

Results flagged for a closer look

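The differences between the ZnF1 and wt libraries in the 40 genes had opposite signs in the 2 fractions. Their median log2 fold of ZnF1 against wt was 3.74 in fraction C, where all 40 genes were higher, and -0.91 in fraction B, where 37 were lower. Of all 10943 genes past the filter, 4393 were higher in fraction C and 4795 lower in fraction B. The step between fractions also had opposite signs in mutants and wt. The median log2 fold of fraction C against B was 4.09 in ZnF1, 0.72 in ZnF4 and -0.57 in wt. Each value rests on 1 library per group, and the difference between groups was not tested. The erythroid markers had a like median in ZnF1 against wt, 3.67 in fraction C and -0.88 in fraction B.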

How the results depend on the processing

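The median log2 folds of the 40 genes kept their sign in all 7 comparisons under every alternative of pseudocount, filter, transcripts or scaling. They were 3.51 to 4.33 for ZnF1 against wt in fraction C, -1.42 to -0.79 in fraction B, -1.06 to -0.44 for ZnF4 against wt in fraction C, -2.08 to -1.42 in fraction B, and 3.55 to 5.15 (ZnF1), 0.35 to 0.85 (ZnF4) and -0.62 to -0.45 (wt) for fraction C against B. Leaving out a library was applied to limma alone and gave no such medians. Of the counts, 166 of 176 were equal to the value reported or within 1.5 times it. Many of these were counts of 0 in both runs, mainly those of limma, and such agreement says little about stability. With a pseudocount of 0.25, 1 gene was at least 2-fold lower in fraction C than B in ZnF4 (0 as reported). With a pseudocount of 4, 1 gene was higher and 6 lower in ZnF4 than wt in fraction C (2 and 13), and 3 were higher in fraction C than B in ZnF4 (10). Scaled on B-lineage genes, 28 were lower in ZnF1 than wt in fraction B (17), and 1 was higher and 22 lower in ZnF4 than wt in fraction C; this scaling moved the median of all genes by 0.53 (fraction C) and -0.45 (fraction B) for ZnF1 against wt, by -0.47 (fraction C) and -0.36 (fraction B) for ZnF4 against wt, and by 1.07 for fraction C against B in ZnF1. Leaving out each library in turn, limma passed 0 to 21 genes as lower in ZnF4 than wt and 0 to 39 as higher in ZnF1 than wt. No paired analysis was possible because, with 1 library per genotype and fraction, replicate numbers carry no pairing; the limma model itself has fraction as a term and so compares genotypes within fractions. No fold of a gene that was at least 2-fold as reported changed sign. Depth is unknown, and levels under about 1 RPKM, such as those of Cd14, Cebpa and Cebpb, are limited by rounding to 0.1.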
